A study of Mus musculus with 55 samples.

Results

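Genes of cholesterol metabolism, chosen by symbol as Sqle, Hmgcs1, Idi1, Cyp51, Lss, Insig1 and Fdps, were followed through the livers of the Collaborative Cross (CC) mice. Of the 7 listed symbols, 6 were paired with a gene among the 37620 gene identifiers measured, and Hmgcs1 was not analysed here. Of these 6, 5 encode enzymes of cholesterol synthesis and Insig1 encodes a regulator, so that uptake genes were described from a separate list.

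CC lines are recombinant inbred mice whose genomes descend from 8 inbred founder strains, namely the wild-derived WSB/EiJ, PWK/PhJ and CAST/EiJ and the classical NZO/HlLtJ, C57BL/6J, NOD/ShiLtJ, A/J and 129S1/SvImJ. Livers came from 55 male mice of 29 lines, all untreated and fed chow freely, aged 8 to 11.9 weeks and weighing 12.8 to 38 g. There were 3 mice in 5 of the lines, 2 in 16 and a single mouse in 8. Polyadenylated RNA was sequenced, and the deposited values are expected counts (fragments estimated per gene by RSEM), and FPKM, which are fragments scaled to transcript length and to the depth of the library.

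Cholesterol is built from acetyl-CoA through mevalonate and isoprenoid units to squalene, which is closed into lanosterol and trimmed to cholesterol. When sterols fall in the membrane of the endoplasmic reticulum, SCAP escorts the transcription factor SREBP2 to the Golgi, where it is cut free to enter the nucleus and raise the genes of the pathway and of cholesterol uptake. The INSIG proteins hold SCAP back when sterols are plentiful, and the liver is a main site of both synthesis and uptake. SREBP2 acts at promoters beside the factor NF-Y, which binds the sequence CCAAT.

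Promoters are shown because the genes varied together. The 250 bases upstream of the transcription start were found for 4 of the 6 genes in the RefSeq annotation of GRCm38.p6, and each is printed 5′ to 3′ on the strand of its gene. Capitals mark CCAAT or its reverse complement ATTGG. They lie at Cyp51 chr5:4104698-4104947 (minus strand), Insig1 chr5:28071162-28071411, Lss chr10:76531355-76531604 and Idi1 chr13:8885356-8885605 (plus strand).
Cyp51: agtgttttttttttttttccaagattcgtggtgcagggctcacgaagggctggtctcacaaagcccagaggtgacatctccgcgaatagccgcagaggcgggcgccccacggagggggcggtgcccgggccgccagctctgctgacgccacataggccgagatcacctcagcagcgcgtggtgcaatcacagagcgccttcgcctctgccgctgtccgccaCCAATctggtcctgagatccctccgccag
Insig1: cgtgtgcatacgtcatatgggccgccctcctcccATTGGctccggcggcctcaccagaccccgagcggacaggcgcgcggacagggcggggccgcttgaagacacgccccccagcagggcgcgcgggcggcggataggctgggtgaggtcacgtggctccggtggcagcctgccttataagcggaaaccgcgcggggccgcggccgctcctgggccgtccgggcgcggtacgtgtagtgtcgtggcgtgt
Lss: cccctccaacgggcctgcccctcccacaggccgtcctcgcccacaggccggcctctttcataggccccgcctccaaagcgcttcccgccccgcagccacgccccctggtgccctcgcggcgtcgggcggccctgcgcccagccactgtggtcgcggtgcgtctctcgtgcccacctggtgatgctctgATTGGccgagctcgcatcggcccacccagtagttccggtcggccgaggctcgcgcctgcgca
Idi1: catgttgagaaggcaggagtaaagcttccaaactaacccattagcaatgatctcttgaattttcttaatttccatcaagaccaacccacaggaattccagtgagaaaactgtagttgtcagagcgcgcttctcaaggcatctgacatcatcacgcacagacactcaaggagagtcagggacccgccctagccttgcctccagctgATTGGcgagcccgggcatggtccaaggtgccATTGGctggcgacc
Counted from the start site, the motif began at -29 in Cyp51, -216 in Insig1 and -62 in Lss, and Idi1 carried a pair of matches, at -45 and -14. On either strand, CCAAT was present in 11120 of 32851 promoters of this length (33.8%). A classical sterol element, searched as TCACNCCAC on both strands, was present in 346 promoters (1.05%) and was not found in these 4 windows. Only exact matches were counted, so other forms of the element could have been missed. Sqle and Fdps had no entry in the table.

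The genes themselves lie, in the NCBIM37 build of the files, on chromosome 15 from 59146632 to 59162747 (Sqle, plus strand), on chromosome 13 from 8884852 to 8891641 (Idi1, plus strand) and on chromosome 5 from 4081145 to 4104746 (Cyp51, minus strand). Lss covers chromosome 10 from 75994333 to 76019883 on the plus strand, where the noncoding gene 4930483K19Rik overlaps it. Insig1 lies on chromosome 5 from 28397952 to 28405201 (plus strand) and Fdps on chromosome 3 from 88897514 to 88905881 (minus strand), with an annotated U6 RNA within it. All 6 are annotated as protein-coding.

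Depth was 20.5 to 34.0 M estimated fragments per mouse, and each of the 6 genes had at least 501 fragments in every mouse, so that counting error was small beside the differences between mice. All 5 hepatocyte markers (Alb, Apoa1, Ttr, Tat and Cps1) were above 0 in every mouse, with a summed FPKM of 14696.6 to 63625.6. In bulk tissue, fewer cells of a type and less RNA per cell cannot be told apart. The 4 pancreas markers summed to a median of 0.41 FPKM, but to 232.61 in IL-3575 replicate 2 and 18.58 in IL-4052 replicate 1. Over 11284 genes, 42 of the 47 mice with a line mate were most like a line mate. The exceptions were the 2 mice of IL-1052 and the 3 of IL-2750, each most like a mouse of the other line, and results that rest on them are given with and without both lines.

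One value needs a limit before the rest. Idi1 has a near-identical copy, the pseudogene Gm13502 on chromosome 2 (53553406 to 53555881, minus strand), which was 99.3% identical to it over 2494 of its 2866 transcript bases. RSEM divides shared fragments between such copies by likelihood. Gm13502 was listed at 19.08 to 260.2 FPKM (median 95.55), above Idi1 itself, and took 57.8% to 80.3% of the fragments of the pair (median 65.6%). Reads of Idi1 and Gm13502 are therefore uncertain singly, and their sum is given wherever a result for Idi1 turns on the split. Copies of Fdps were found at 6 other loci, where the pseudogenes Gm3571 and Gm8163 and the processed transcript Gm14661 reached no more than 0.08 FPKM and the protein-coding gene Adcy2, which holds a copy, no more than 1.04 FPKM. A copy of Insig1 on chromosome 3, 97.9% identical over 2040 of 2647 bases, carried no annotated gene.

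Fdps joins isoprenoid units into farnesyl diphosphate, the branch point to sterols and to other isoprenoids, and it had the highest median level of the 6 genes. Its FPKM was 51.93 in the lowest mouse, 205.39 in the median mouse and 470.01 in the highest. Line means ran from 51.93 in IL-1452, which has 1 mouse, to 380.4 in IL-3438, a 7.32-fold span. The mice of IL-3438 had 470.01 and 290.76, and those of IL-4052 had 86.62 and 122.03, so that these lines did not overlap.

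Idi1 converts isopentenyl diphosphate into dimethylallyl diphosphate, the isoprenoid units that Fdps joins. It was measured at 9.46 FPKM in the lowest mouse, 43.18 in the median and 118.75 in the highest. Line means spanned 8.65-fold, from 11.6 in IL-2146 to 100.5 in IL-3438. Summed with Gm13502, the values were 31.09, 138.16 and 375.3 FPKM, and the line span was 10.3-fold with IL-1452 at the low end.

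Sqle adds oxygen to squalene and is a rate-limiting enzyme of the later pathway. It was at 7.32 FPKM in the lowest mouse, 33.15 in the median and 76.77 in the highest. Its line means spanned 9.80-fold, from IL-1452 to IL-4457 (71.8), the widest span among the 6 genes as deposited. The 2 mice of IL-4457 had 76.77 and 66.75, and the lowest value belonged to the only mouse of IL-1452.

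Lss folds the product of Sqle into lanosterol, the first sterol, and had the lowest level of the 6 genes. Its FPKM was 5.03, 13.27 and 40.7 in the lowest, median and highest mouse, and line means ran from 6.07 in IL-1452 to 30.6 in IL-3438 (5.04-fold). Its mice within IL-3438 stood apart, at 40.7 and 20.5. Lss had 8 annotated isoforms. Its main isoform held 38.28% to 84.82% of expression (median 75.14%), and a retained-intron isoform held 11.1% to 53.19% (median 18.14%). The highest share of that isoform, 53.19%, was in the only mouse of IL-557 and the next, 33.36%, in IL-2750 replicate 2. By contrast, the main isoform of Sqle, Idi1 and Cyp51 held at least 93.4% in every mouse, and Insig1 and Fdps had 1 isoform.

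Cyp51 removes a methyl group from lanosterol. Its FPKM was 17.05 in the lowest mouse, 46.25 in the median and 81.97 in the highest. It had the narrowest line span of the 6 genes, 4.38-fold, from IL-1452 to IL-3438 (74.7).

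Insig1, the retention protein of SCAP and itself a target of SREBP2, was at 49.82, 123.08 and 449.73 FPKM in the lowest, median and highest mouse. Its line means spanned 7.31-fold, from 53.5 in IL-4052 to 391 in the single mouse of IL-2126. Insig1 departed from the enzymes in several lines. In IL-3438, where 4 of the 5 enzymes were at their highest line mean, its mice had 153.75 and 122.57 FPKM, near the median mouse.

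**Figure D1:**
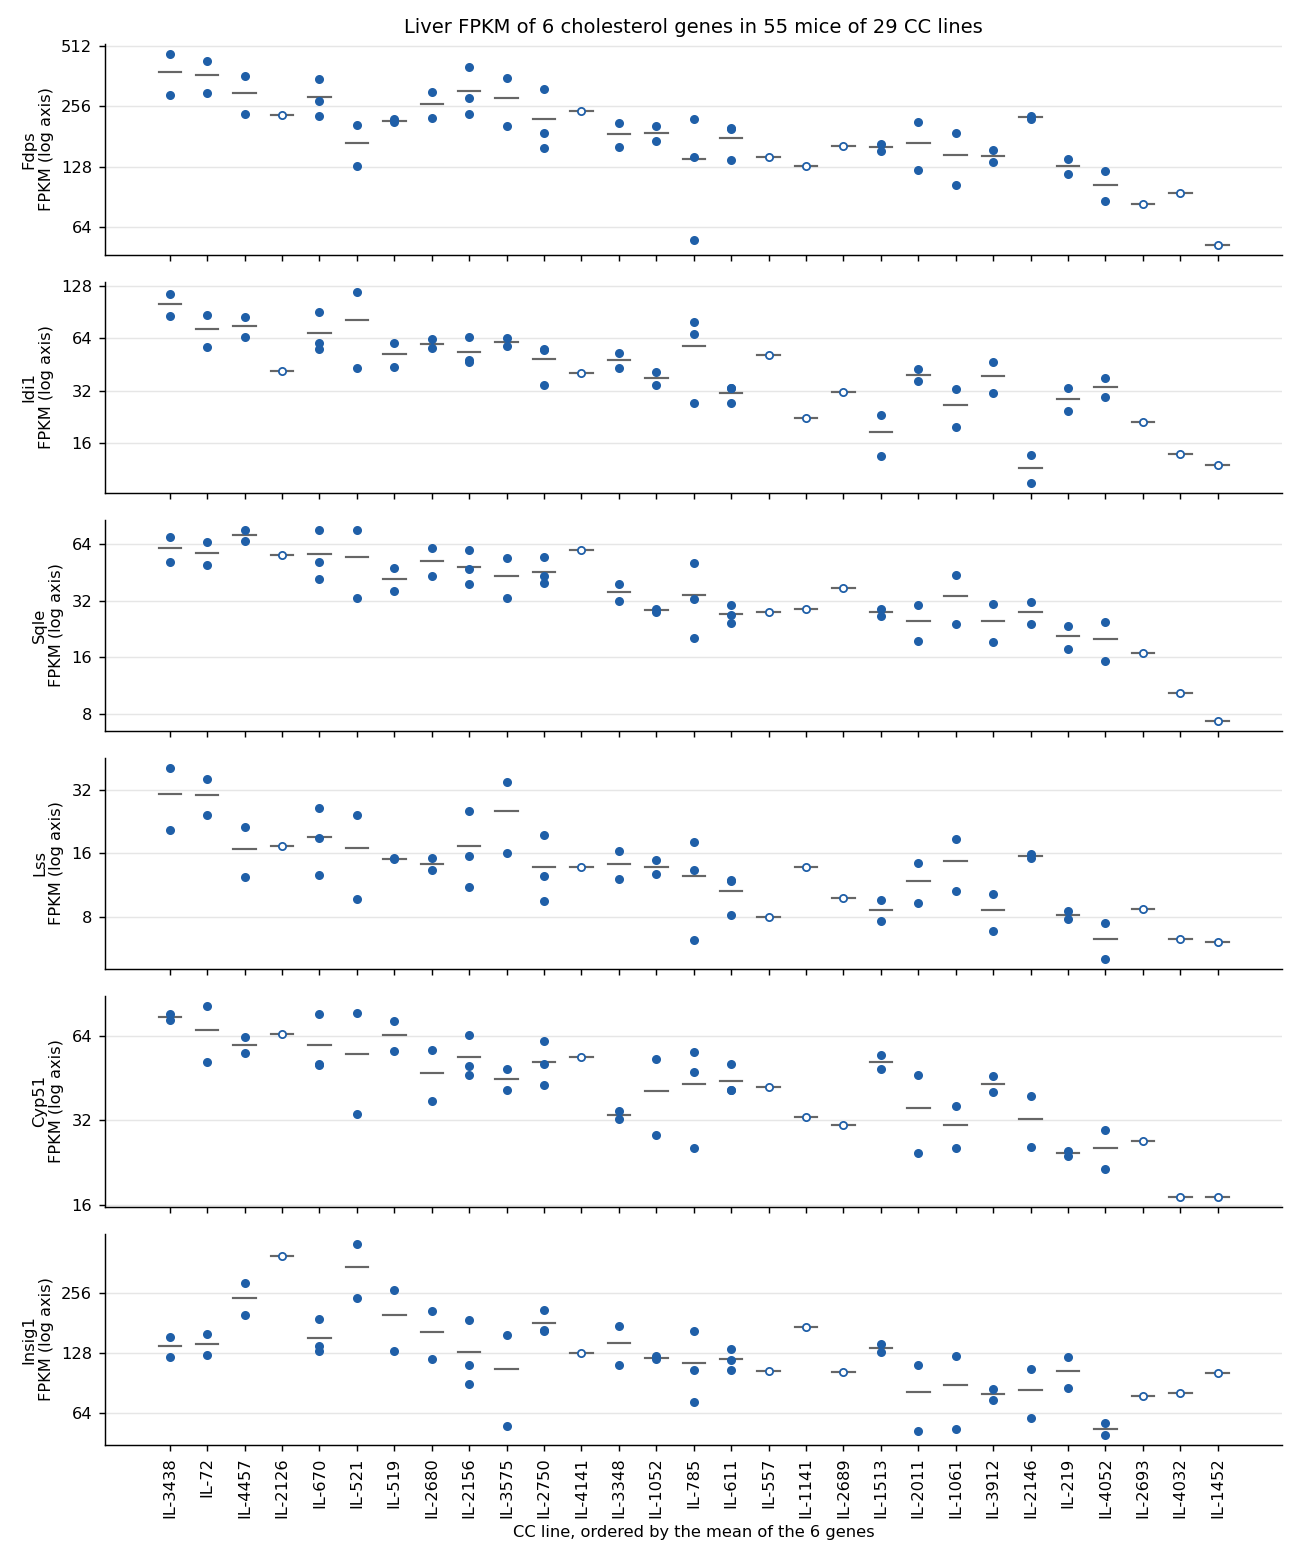
FPKM of each of the 6 genes (log axis) in every mouse, by line, where points are mice, open points the only mouse of a line and bars line means. Sqle ranges from 7.32 to 76.77 and Insig1 from 49.82 to 449.73, and the lines at the left lie above those at the right for most of the genes.

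The question for the lines was whether mice of a line were more alike than mice of different lines. All 6 genes differed among the 21 lines with at least 2 mice, with adjusted p between 3.59e-05 (Idi1) and 0.00386 (Fdps) in the edgeR quasi-likelihood F test with Benjamini-Hochberg adjustment. So did most of the genes tested (13523 of 15285, 88.5%), and the count for the 6 genes is read against that share. Within the ranking of F, the 6 genes were ordinary. The F of Idi1 was 5.81, larger than that of 69.0% of genes, and the F of Fdps was 3.11, larger than that of 32.1%. Sqle lay between them at 4.49, Cyp51 at 3.69, Insig1 at 3.595 and Lss at 3.30. Summed with Gm13502, Idi1 had an F of 4.82 (adjusted p = 0.000164).

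The intraclass correlation is the share of variance that lies between lines. It was 0.654 for Idi1, 0.627 for Sqle, 0.604 for Fdps, 0.487 for Insig1, 0.482 for Cyp51 and 0.419 for Lss, with a median of 0.546 against 0.592 over 5949 genes. Mice of a line therefore differed widely in these genes. Line mates had the same age in every line but IL-785, and conditions shared by line mates cannot be told apart from the line.

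The level of the 6 genes together was expressed as the mean of their log2(FPKM + 1), each centred on its mean over lines. By this mean the highest lines were IL-3438 (0.90), IL-72 (0.78) and IL-4457 (0.76), and the lowest were IL-1452 (-1.30), IL-4032 (-1.10) and IL-2693 (-0.75). Each of these low lines has 1 mouse, and the next, IL-4052 (-0.75), is the lowest line with more. Neighbours in this order were not separated. Among the 21 lines with at least 2 mice, all 20 neighbouring pairs had overlapping mice. At the ends, both mice of IL-3438 lay above every mouse of 14 lines, and 15 lines lay wholly above IL-4052. Both lines were picked as the ends of this same order, which favours such gaps, so this is a description without a test.

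Mice of a line differed most in IL-785, by 1.30 on this log2 scale (2.46-fold), and in IL-521, by 1.10 (2.14-fold). In IL-785, replicate 3 was the low mouse in all 6 genes, with Fdps at 55.01 against 220.76 and 142.85 FPKM in its line mates. It was also the lightest mouse of the study at 12.8 g, against 15.8 and 15.4 g, and was 9.0 weeks old against 8.1 and 8.3. In IL-521, replicate 1 was the higher mouse in all 6 genes, with Idi1 at 118.75 against 43.36 FPKM. In IL-3575, replicate 2 was higher in all 6 genes, with Insig1 at 157.57 against 55.4 FPKM. This was the mouse with 232.61 FPKM of pancreas markers, and their part in that difference was not tested.

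**Figure D2:**
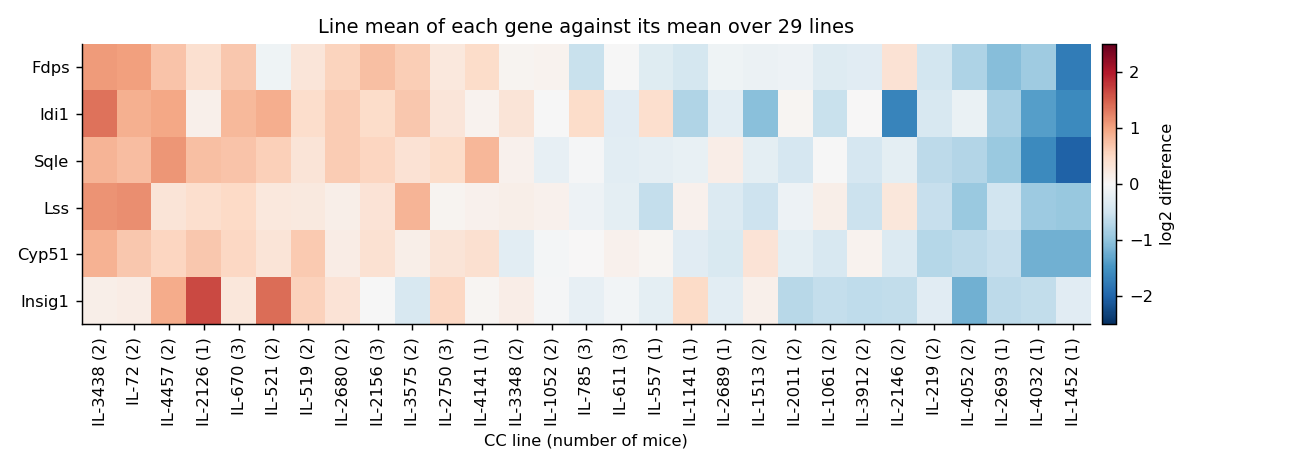
Level of each gene in each line as log2(FPKM + 1) centred on its mean over the 29 lines, with lines ordered by the mean of the 6 genes. The columns at the ends, IL-3438 (0.90) and IL-1452 (-1.30), hold mostly one colour, while Insig1 in IL-3438 and Idi1 in IL-2146 stand out from their columns.

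Each line with at least 2 mice was then set against the mean of the other such lines. Of 126 such tests of 6 genes in 21 lines, 14 were higher and 7 lower, or 11.1% and 5.56%. Over all genes these shares were 10.9% and 7.18%, so the 6 genes were called about as often as other genes. They fell in 10 lines. IL-3438 held 4, and IL-4457 and IL-4052 held 3 each. All 3 lines are described because of these same values, and the latter pair was chosen after its values were seen.

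IL-3438 had higher levels of 4 enzymes. Idi1 was 1.22 higher on the log2 scale (SE 0.265, adjusted p = 0.00306), Lss 1.17 (SE 0.299, adjusted p = 0.0129), Fdps 0.91 (SE 0.284, adjusted p = 0.0458) and Cyp51 0.76 (SE 0.231, adjusted p = 0.0416), all by edgeR's quasi-likelihood test. In this line 5.23% of all genes were higher and 2.22% lower. Sqle (0.71, adjusted p = 0.0933 by edgeR) and Insig1 (0.09, adjusted p = 0.964 by edgeR) did not pass. Of 14 other cholesterol synthesis genes 8 were higher and 0 lower, among them Mvd (1.16), which makes isopentenyl diphosphate, and Hsd17b7 (0.96), a later sterol reductase. Of 11 fasting genes 2 were higher and 2 lower, and of 10 clock genes 2 were higher and 1 lower, with Per1 at -3.37, and their part in the result was not tested. Without replicate 1 none of the 6 genes was called in this line, and without replicate 2 there were 2.

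IL-4457 had higher Sqle (1.08, SE 0.247, adjusted p = 0.000818), Insig1 (1.06, SE 0.302, adjusted p = 0.00582) and Idi1 (0.87, SE 0.275, adjusted p = 0.0121) by edgeR. Many genes were called in this line, with 20.9% of all tested higher and 18.4% lower. Of the 14 other synthesis genes 4 were higher and 1 lower, with Pmvk, which acts on phosphomevalonate, 1.02 higher (SE 0.213, adjusted p = 0.000288 by edgeR). Of 12 fatty acid synthesis genes 7 were higher and 0 lower, among them Acly (1.38), which supplies acetyl-CoA. Cyp7a1, the first enzyme of bile acid synthesis from cholesterol, was lower (-2.79, adjusted p = 0.00560 by edgeR). Of the 11 genes of uptake and SREBP2 control 0 were higher and 4 lower. Other lists moved in this line too. All 4 bile duct markers were higher (median 1.80), as were 2 of 4 endothelial markers. Of 10 clock genes, Per1 (1.57) was higher and Arntl (-2.09) and Clock (-0.77) were lower, and of 11 fasting genes 2 were higher and 2 lower. Their part in the result was not tested. The 3 genes were still called without replicate 2, and replicate 1 was not left out.

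IL-4052 had lower Insig1 (-1.29, SE 0.386, adjusted p = 0.0307), Lss (-1.21, SE 0.385, adjusted p = 0.0433) and Sqle (-0.94, SE 0.307, adjusted p = 0.0490) by edgeR. Of all genes, 2.89% were lower in this line and 6.34% higher. Fdps (-1.003) and Cyp51 (-0.83) had adjusted p of 0.0676 and 0.0522 in the edgeR test. Of the 14 other synthesis genes 6 were lower, with Mvd at -1.62 and Sc5d, a sterol desaturase, at -1.57. Of the 11 genes of uptake and SREBP2 control 2 were lower and 1, Mylip, was higher (0.83). Of 12 fatty acid synthesis genes 2 were lower, Scd1 (-1.76) and Mlxipl (-0.50), and 0 higher. Of 11 fasting genes 2 were higher, Pck1 (0.89) and Angptl4 (1.19), and 0 lower. The part of these lists in the result was not tested. Without replicate 1, the mouse with 18.58 FPKM of pancreas markers, none of the 6 genes was called in this line, and their median log2 difference was -0.80 against -0.97 with it.

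The other 11 calls were spread over 7 lines. Higher were Insig1 (1.41) and Idi1 (0.81) in IL-521, Lss (1.12) and Fdps (0.84) in IL-72, Idi1 (0.75) and Sqle (0.71) in IL-670 and Cyp51 (0.74) in IL-519. Lower were Cyp51 (-1.02) and Sqle (-0.998) in IL-219 and Idi1 alone in IL-2146 and IL-1513. Of the 14 other synthesis genes, 10 were higher in IL-670 and 9 in IL-72, where 10.3% and 10.1% of all genes were higher. With replicate 2 left out of IL-72, the median log2 difference of the 6 genes was 0.34 against 0.66 with it. It was 0.21 against 0.40 in IL-519 (without replicate 1), but -0.996 against -0.84, farther from the other lines, in IL-219 (without replicate 2). It was 0.84 against 0.36 in IL-521, -0.73 against -0.45 in IL-2146 and -0.47 against -0.50 in IL-1513, each without replicate 2. Each of these lines has 2 mice and then keeps 1, so only the size of the difference is given here. In IL-670 as many genes as before were called without replicate 3.

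The calls for Idi1 in IL-2146 and IL-1513 fell in the lines with the highest share of fragments on Gm13502, 79.1% and 74.5%. The mice of IL-2146 had 9.46 and 13.77 FPKM of Idi1, and those of IL-1513 had 13.6 and 23.37. In IL-2146 the log2 difference from the other lines was -2.005 for Idi1 (SE 0.368, adjusted p = 5.75e-05 by edgeR), -0.99 for Gm13502 and -1.27 for the sum (SE 0.341, adjusted p = 0.00294 by edgeR). In IL-1513 the values were -1.43 for Idi1 and -1.04 for the sum (adjusted p = 0.00282 and 0.0209 by edgeR). Both lines thus stayed below the others with the copies summed, by a smaller amount. The sum was also lower in IL-219 (-0.98, adjusted p = 0.0468 by edgeR), and the call for IL-521 was lost (0.72, adjusted p = 0.0724 by edgeR).

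**Figure D3:**
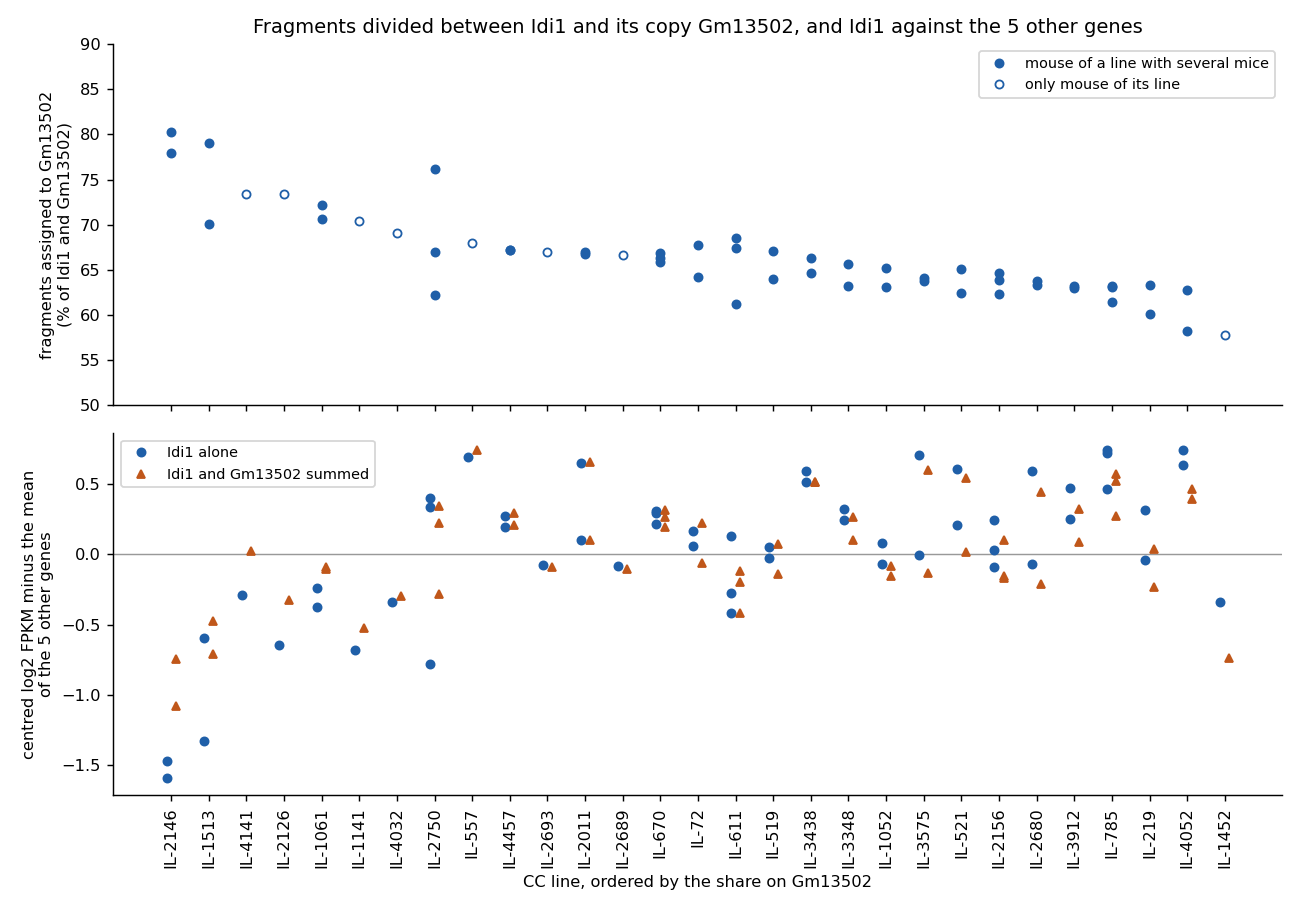
Idi1 and its near-identical copy Gm13502 in each line: the share of their fragments assigned to Gm13502 (percent), and the departure of Idi1 from the other 5 genes on the log2 scale, alone and summed with Gm13502, with a point for each mouse. IL-2146 has the highest share (79.1%), and its departure of -1.53 became -0.91 with the copies summed.

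Single genes also left the common level of their line. The departure of a gene is its centred log2 value minus the mean of the other 5 genes. Idi1 departed by -1.53 in IL-2146, or by -0.91 when summed with Gm13502. Insig1 departed upward in IL-1452 (1.21) and IL-2126 (1.18), each with 1 mouse, and downward in IL-3575 (-0.93) and IL-3438 (-0.91). Both mice of IL-3438 were low, at -0.82 and -1.01. Fdps was above the rest in IL-2146 (0.88) and below them in IL-521 (-0.81), and Cyp51 was above them in IL-1513 (0.71). The rest includes Idi1, whose own centred value was -1.65 in IL-2146, 0.90 in IL-521 and -1.05 in IL-1513 and is uncertain because of Gm13502. These departures were not analysed without Idi1. The intraclass correlation of the departure was 0.670 for Sqle, 0.698 for Idi1, 0.632 for Lss, 0.694 for Insig1, 0.618 for Fdps and 0.349 for Cyp51. For the levels on the same log2 scale it was 0.682 for Sqle, 0.716 for Idi1, 0.415 for Lss, 0.486 for Insig1, 0.537 for Fdps and 0.540 for Cyp51. It was higher for the departure than for the level in Lss, Insig1 and Fdps and lower in Sqle, Idi1 and Cyp51, as descriptions without a test. Summed with Gm13502, Idi1 had 0.654 for the departure and 0.661 for the level.

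The next question was whether the genes moved together across lines. Pearson's r of log2(FPKM + 1) across the means of the 29 lines had a median of 0.747 over the 15 pairs, from 0.439 (Insig1 and Fdps) to 0.895 (Sqle and Fdps). Over all pairs of 11284 genes the median r was 0.061, and the 5th and 95th percentiles were -0.35 and 0.484. Of the 15 pairs, 9 passed in a two-sided permutation test with 100000 permutations of the lines, adjusted by Benjamini-Hochberg over all pairs of a member gene and any gene, and 0.14% of those pairs passed with a positive r. By Spearman's rho 10 passed, with a median rho of 0.742. Leaving out, for each pair, the 2 lines farthest from the median in its first gene gave a median r of 0.728. The first gene is the earlier in the order Sqle, Idi1, Cyp51, Lss, Insig1 and Fdps. Line means rest on few mice, and on a single mouse in 8 lines, so they also carry differences among mice of a line. The r between lines is therefore not separate from that within lines. With only the lines of at least 2 mice, 3 pairs passed and the median r was 0.667.

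The 4 enzymes Sqle, Cyp51, Lss and Fdps passed in all 6 of their pairs by Pearson's r. By rho Cyp51 and Lss did not pass (rho = 0.719, permutation adjusted p = 0.0536). Sqle and Fdps had r = 0.895 and rho = 0.849, each with a permutation p of 1e-05, the smallest that 100000 permutations can give. The adjusted p of these permutation tests was 0.0121 and 0.0147, and r was 0.847 without the 2 lines farthest from the median in Sqle. Sqle and Cyp51 reached r = 0.889, Lss and Fdps 0.860 and Cyp51 and Lss, the lowest of these 6, 0.747. Idi1 passed with Sqle (0.792), Cyp51 (0.762) and Fdps (0.695), but with Lss it had r = 0.654 (permutation adjusted p = 0.0555). None of the 5 pairs of Insig1 passed by Pearson's r, the highest being with Cyp51 (r = 0.630, permutation adjusted p = 0.0927). By rho its pairs with Sqle (0.752) and Cyp51 (0.713) did pass. Whether the r of Insig1 differs from those of the enzymes was not tested.

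Within lines the pairs were followed in the 47 mice with a line mate, as deviations from the line mean, with permutations inside lines. In a line of 2 mice the deviations mirror each other, and leaving out 1 mouse removes the line. The 47 deviations thus hold only 26 independent values (degrees of freedom). The median r over the 15 pairs was 0.734, from 0.574 (Idi1 and Insig1) to 0.933 (Lss and Fdps), against a median of 0.101 over all gene pairs (5th percentile -0.321, 95th 0.511). Of the pairs 5 passed, and 6 by rho, while 0.105% of all pairs of a member gene and any gene passed with a positive r. They were Lss with Fdps, Sqle (0.876) and Insig1 (0.748), and Sqle with Fdps (0.869) and Cyp51 (0.817). For Lss and Fdps, r = 0.933 had a permutation p of 1e-05, the smallest they can give, and an adjusted p of 0.0165, and rho = 0.959 had a permutation adjusted p of 0.0233. Without the 2 mice farthest from the median in Lss r was 0.938. The genes therefore also varied together among mice of the same line. Without IL-1052 and IL-2750 the median r was 0.816 and 10 pairs passed. Leaving out IL-785 replicate 3 left 3 pairs, and leaving out IL-785 replicate 1 gave 8, while the median r stayed at 0.707 and 0.744.

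With Idi1 and Gm13502 summed, an alternative added after the data were seen, r with each of the other 5 genes was higher than for Idi1 alone, both between and within lines. Between lines it was 0.9003 with Sqle, 0.860 with Cyp51, 0.808 with Fdps, 0.743 with Lss and 0.522 with Insig1. The pair with Lss then passed (permutation adjusted p = 0.0199), which made 10 of 15 pairs. Within lines it was 0.873 with Sqle, 0.813 with Cyp51, 0.783 with Lss, 0.751 with Fdps and 0.654 with Insig1, and 9 of 15 pairs passed in place of 5.

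**Figure D4:**
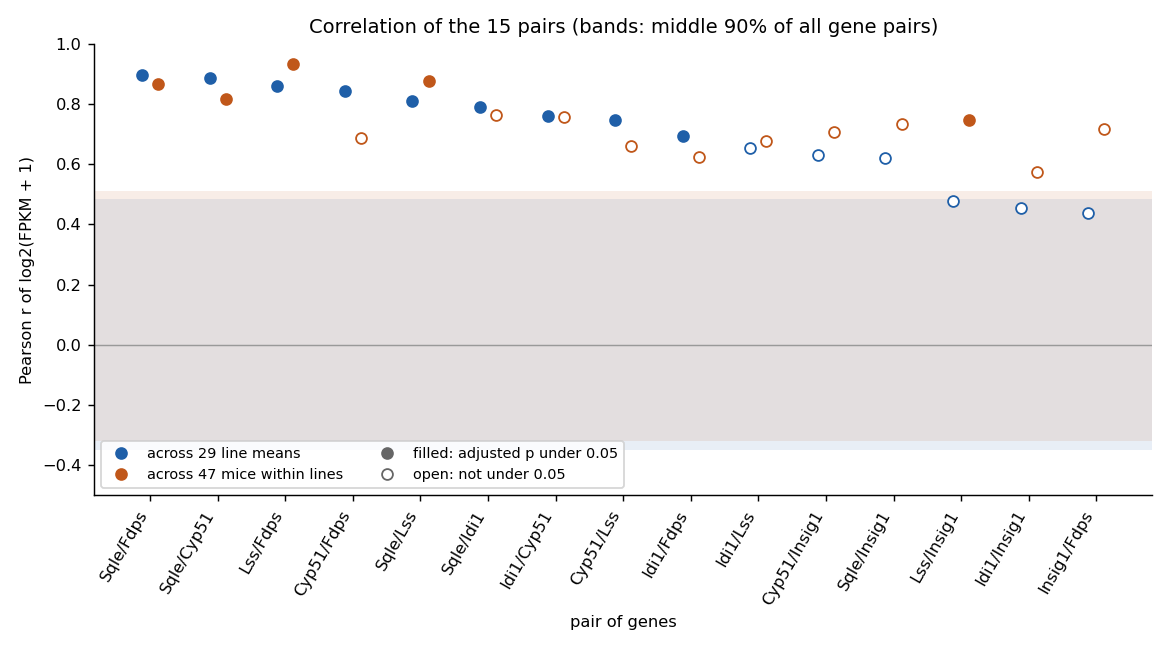
Pearson's r of each of the 15 pairs between lines (29 line means) and within lines (47 mice, deviations from the line mean), where filled points have an adjusted p under 0.05 and bands hold the middle 90% of all gene pairs. Between lines r runs from 0.439 to 0.895 and within lines from 0.574 to 0.933, and the pairs of Insig1 have the lowest values between lines.

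Genes outside the 6 were ranked by their median r with them across lines. The 10 highest included Gm13502 (0.858), Sc4mol (0.809), Nsdhl (0.784), Pmvk (0.767), Fdft1 (0.763), Dhcr7 (0.737), Mvd (0.718), 0610007P14Rik (0.666) and Hsd17b7 (0.648). Sc4mol (Msmo1), Nsdhl and Hsd17b7 remove the methyl groups of lanosterol, Pmvk and Mvd act on the phosphates of mevalonate, Fdft1 makes squalene and Dhcr7 acts at the last step. Gm13502 shares reads with Idi1, so its place is no separate observation for that gene. Only 6 of 11278 genes (0.0532%) passed with at least 4 of the 6 genes between lines, and 7 (0.0621%) within lines. Of the 14 other cholesterol synthesis genes, 5 were among these between lines and 5 within lines, and Gm13502 was among them in both.

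Over the 14 other synthesis genes the median r was 0.647 between lines and 0.694 within lines, against -0.030 and 0.026 over all genes. Mvd had the highest value within lines (0.852). It ranged from 3.53 FPKM in the lowest mouse to 12.71 in the median and 39.32 in the highest, and its line means spanned 8.71-fold, from IL-1452 (3.72) to IL-72 (32.4). Acat2, which joins acetyl-CoA units at the start of the pathway, was among the lowest of the list, at 0.502 and 0.508. All 14 genes differed among lines, beside 88.5% of all genes.

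The 11 genes of uptake and SREBP2 control did not share one pattern. Their median r was 0.021 between and 0.145 within lines. With at least 4 of the 6 genes, 0 of 11 passed between lines and 1 of 11 within lines, beside 0.0532% and 0.0621% of all genes. Srebf2, which encodes SREBP2, had 0.576 between and 0.458 within lines, at 5.51 FPKM in the lowest mouse, 8.31 in the median and 14.16 in the highest. Whether its values between and within lines differ was not tested. Insig2, the second retention protein of SCAP, had 0.021 and -0.105. It ranged from 18.48 to 307.27 FPKM, with line means spanning 13.1-fold from IL-2146 (21.9) to IL-557 (287.8), and Npc1, which moves cholesterol out of lysosomes, had -0.338 and -0.117.

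Other branches of lipid metabolism had lower values. The 12 fatty acid synthesis genes had a median r of 0.293 between and 0.289 within lines, with Acly at 0.548 and 0.566 and Fasn, the fatty acid synthase, at 0.498 and 0.579. None passed with 4 of the 6 genes. The medians were -0.103 and 0.045 for cholesterol efflux and conversion, and -0.063 and -0.009 for the isoprenoid branch that leads away from sterols. For the marker lists of other liver cells, the medians between lines lay between -0.097 (stellate cells) and 0.216 (bile duct cells).

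**Figure D5:**
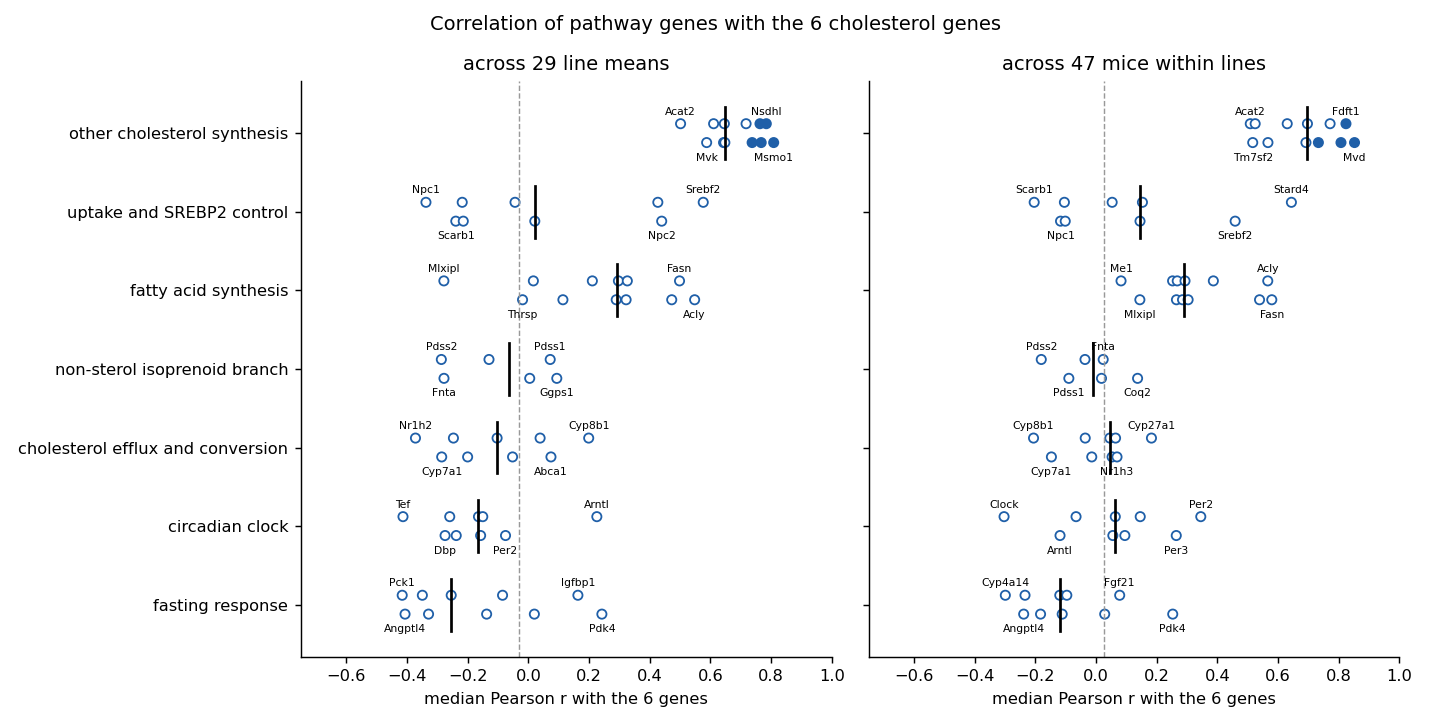
Median Pearson's r of listed genes with the 6 genes, across 29 line means (left) and 47 mice within lines (right), where filled points passed with at least 4 of the 6 genes, bars are medians of the whole lists (a few list genes are not drawn) and the dashed line is the median over all genes. The other cholesterol synthesis genes lie high, with medians of 0.647 and 0.694, while the drawn genes of uptake and SREBP2 control are spread from Npc1 (-0.338 between lines) to Srebf2 (0.576).

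The labels give body weight and age, and depth is the technical measure in the files. Across the 29 line means none of the 6 genes passed with body weight, age or depth in a two-sided permutation test adjusted over 11284 genes, and neither did any other gene (0% each), while 904, 650 and 412 genes had an unadjusted p under 0.05. For body weight Idi1 had r = 0.419 (permutation p = 0.0240, adjusted p = 0.594, 0.441 without the 2 lines farthest from the median weight) and rho = 0.365 (permutation p = 0.0527, adjusted p = 0.842). Sqle had r = 0.386 and rho = 0.319 (permutation p = 0.0388 and 0.0933, adjusted p = 0.597 and 0.884), and 0.323 without the 2 farthest. Fdps had r = 0.384 and rho = 0.377 (permutation p = 0.0406 and 0.0451, adjusted p = 0.601 and 0.816), and 0.295 without them. The r values of the 6 genes with depth lay between -0.166 and 0.061, and those with age between 0.088 and 0.174. A relation of this size with body weight was not detectable over 29 lines after adjustment.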

How the data were processed

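Liver RNA of 55 mice of 29 lines was analysed, with lines taken from the labels, which give neither a batch nor replicate numbers. Per the labels and the paper's methods, the authors aligned paired-end reads to mm9 with Bowtie 2 and quantified them with RSEM version 1.2.18 on Ensembl 67 transcripts. The deposited expected counts are estimated fragments per gene or isoform, without normalization. In the deposited TPM and FPKM, RSEM corrected for transcript length and depth. The authors' isoform values, also deposited, give the percent of a gene's expression held by each isoform. RSEM divides fragments that match several genes by likelihood, which lowers certainty for close copies.

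The genes and lists were chosen with earlier results of these data known. The naming rule took all listed genes, the extremes of each list, Srebf2, Insig2 and a few other genes, the 10 genes most like the 6, and lines at the ends of the order or with at least 4 genes called. Expected counts were rounded and tested with edgeR version 4.0.16 (TMM, default expression filter, quasi-likelihood test, Benjamini-Hochberg, threshold 0.05) in R 4.3.3 over 15285 genes in the 47 mice of 21 lines, with DESeq2 version 1.42.0 as an alternative. Correlations used log2(FPKM + 1) over 11284 genes with a maximum FPKM of at least 2, with 100000 permutations. Intraclass correlations used van der Waerden scores of FPKM. Copies were sought with BLAST 2.17.0 (at least 90% identity over 300 bases). Other steps ran in Python 3.11.15 with scipy 1.17.1, matplotlib 3.10.9, pandas 2.3.3 and numpy 2.4.6. The edgeR and correlation steps were tested on simulated data. Depth was 20.5 to 34.0 M fragments per mouse. Hmgcs1 was not analysed here, and some genes of the lists enter counts and medians but are not reported singly here. The alternatives changed the unit, pseudocount, filter, normalization, tool, lines and mice. Summing Idi1 with Gm13502, 1000000 permutations and leaving out each line of 1 mouse in turn were chosen after seeing the data.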

Additional observations from a re-analysis of the deposited data

How the results depend on the processing

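All 6 genes differed among lines under each of 28 alternatives. Between lines, 8 to 12 of 15 pairs passed in place of 9 under every alternative but one. With only the lines of at least 2 mice there were 3, with a median r of 0.667, over fewer lines. Within lines, 5 pairs passed, against 8 on TPM, 3 with all genes above 0 kept, 10 without IL-1052 and IL-2750 and 9 with Idi1 and Gm13502 summed, while the median r stayed between 0.702 and 0.816. Leaving out 1 mouse in turn gave 8 to 11 pairs between and 3 to 8 within lines, with 3 without IL-785 replicate 3 and 8 without IL-785 replicate 1. In single lines it gave 10 to 16 higher and 3 to 8 lower calls, with 3 lower without IL-219 replicate 2 and 4 without IL-4052 replicate 1, where the line keeps 1 mouse, assumed to vary like the others. In that test 22 of 47 mice were left out in turn, as time allowed. With 1000000 permutations the counts of pairs were again 9 and 5. The number of genes that passed with body weight, age or depth was 0 under all 62 alternatives of each. Other causes of these changes were not tested. The intraclass correlation of Fdps was 0.480 on untransformed FPKM against 0.604. No paired analysis was made, since the labels pair no mice across lines.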

Other observations

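Lists of the fed state and the daily rhythm had lower r with the 6 genes than the synthesis genes. The 11 fasting genes had a median r of -0.254 between and -0.120 within lines. The 9 clock genes with enough expression, of 10, had -0.165 and 0.063. In IL-72, the second highest line for the 6 genes, 6 clock genes were lower and 2 higher, with a median log2 difference of -1.11, in a line where 10.1% of all genes were higher and 5.27% lower. None of the 6 genes was called in IL-2011, with 6 clock genes lower and 2 higher (median -0.92), or in IL-2156, with 7 lower and 3 higher (-0.74). The reverse held in IL-3348, also without a call among the 6 genes, where 7 clock genes were higher and 3 lower (median 0.87). Of all genes, 12.3% were higher and 8.16% lower in IL-2011, 16.5% and 10.2% in IL-2156 and 6.03% and 3.18% in IL-3348. Clock genes moved in both directions within these lines, so the list median is not a level of the clock. The part of the clock genes in the level of the 6 genes was not tested. The times at which livers were taken were not analysed here.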
